A study of Mus musculus with 6 samples.

Results

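RNA of the tibialis anterior (TA) muscle, a fast muscle of the lower hind limb, was sequenced in male C57BL/6J mice aged 24 months per the sample labels. 3 mice received vehicle (DMSO and Tween 80) and 3 received BML-260, the small molecule used in the study to inhibit the phosphatase DUSP22, at 5 mg/kg by daily intraperitoneal injection for about 1 month. Each library came from 1 mouse, and no young or untreated mice are among these samples. Libraries were made from total RNA with a stranded kit that depletes ribosomal RNA, so transcripts without a poly(A) tail were also sequenced. The genes described here are the abundant noncoding RNA genes of this muscle: every row of the TPM tables whose gene_biotype was not protein_coding and whose mean TPM over the 6 libraries was at least 5, leaving out 4 imprinted genes (H19, Meg3, Rian and Mirg), 1 of which was above that level. The genes were thus chosen by their measured TPM over both groups, and their levels are given as a description. TPM is a level that takes gene length and library size into account. Of 3353 noncoding rows among 16800 rows, 455 met this rule.

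By gene_biotype the 455 genes were 209 pseudogenes and 16 transcribed pseudogenes, 116 long noncoding RNAs (lncRNAs), 36 small nucleolar RNAs (snoRNAs), 27 small nuclear RNAs (snRNAs), 18 tRNAs, 9 miRNAs, 9 guide RNAs of the Cajal body and 15 genes of other or unnamed classes. The lowest genes inside the limit were LOC115489000, a U1 copy, with a mean of 5.01 TPM and Snord22 with 5.01 TPM, and the highest outside were Gm13363 with 4.97 and Mir1982 with 4.96. Some labels go against the word noncoding. RefSeq lists 6 of the lncRNAs as protein-coding, among them Ndufb1-ps and Mtln (mitoregulin, a mitochondrial micropeptide), and the C_region class held the immunoglobulin constant genes Ighm and Igkc. In 54 of the genes the mean was under 5 TPM in 1 of the groups, and in 32 it was under 5 TPM when vehicle replicate 3 was left out, so these genes belong to the set through some libraries only.

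Noncoding RNA in muscle does several kinds of work. 7SL RNA is the scaffold of the signal recognition particle, 7SK RNA holds the elongation factor P-TEFb in an inactive complex, and RNase P and RNase MRP RNAs are the catalytic parts of enzymes that process tRNA and rRNA. The snRNAs form the spliceosome, while snoRNAs guide the modification of rRNA and are mostly cut out of introns of host genes. Many snoRNA host genes are transcripts of the TOP class, which start at a C within a run of pyrimidines and respond to the growth kinase mTOR. Processed pseudogenes are copies of mRNA in the genome, and where the copy is nearly identical to its source gene, short reads cannot be assigned to one of them with certainty.

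The start sites of snoRNA host genes are shown here for the pyrimidine run of the TOP class, from RefSeq promoters of GRCm38.p6, as 50 bases centred on the annotated start. Capitals mark the longest run of C and T inside the 10 bases on either side of the start, and a run that crosses the edge of this window is marked only up to the edge. Gas5 has a pair of annotated starts, at chr1:161034576-161034625 (start 1) and chr1:161035141-161035190 (start 2), with Snhg1 at chr19:8723462-8723511, Snhg8 at chr3:123508312-123508361 (minus strand), Snhg12 at chr4:132308653-132308702 and Zfas1 at chr2:167062909-167062958.
Gas5 start 1: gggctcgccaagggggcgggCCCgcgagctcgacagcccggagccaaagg
Gas5 start 2: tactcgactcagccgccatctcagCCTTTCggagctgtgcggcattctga
Snhg1: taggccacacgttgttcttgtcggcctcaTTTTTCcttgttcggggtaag
Snhg8: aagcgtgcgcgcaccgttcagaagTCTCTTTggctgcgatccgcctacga
Snhg12: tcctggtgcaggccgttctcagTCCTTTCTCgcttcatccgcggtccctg
Zfas1: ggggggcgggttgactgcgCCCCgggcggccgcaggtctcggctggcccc

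A run of at least 5 pyrimidines lay inside the window in 5 of the 8 host genes with a promoter in the table (62.5%), against 38.3% of 27025 genes of the table. Genes with several starts were counted by the start with the longest run, so Gas5 was counted although its other start has a run of 3. When runs that cross the edge were counted whole, a choice made after seeing the data, 6 of the 8 had one (75.0%), against 49.0% of the table, since Snhg5 then has a run of 7. Zfas1 and Snhg20 (its start not shown), each with a run of 4, had none by either count. Mature miRNAs of 2 loci are shown with the seed (bases 2 to 8) in capitals: miR-3064, which lies in the coding gene Ddx5 and was the highest miRNA gene of the set, and miR-22, whose host gene Mir22hg is described below.
miR-3064-5p: uCUGGCUGuuguggugugcaaa
miR-3064-3p: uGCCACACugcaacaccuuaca
miR-22-3p: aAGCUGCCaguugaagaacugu
miR-22-5p: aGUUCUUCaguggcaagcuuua

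The 13 miRNA genes of the set include 4 to which the files give no biotype, and no seed was shared between the mature forms found. A library of this kind measures reads over the miRNA gene, mostly from longer precursors or host transcripts, and not the mature miRNA.

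Between 39522890 and 56998875 reads per library were counted on genes, and the 455 genes held 28.6% to 37.2% of the TPM and 9.48% to 15.7% of the counts of a library. Vehicle replicate 3 stood apart from the other libraries. It had the highest TPM of the 6 libraries for 212 of the 455 genes (46.6%, against 61.4% of all 16800 rows) and the lowest for 139 (30.5%, against 11.02% of all rows). Summed TPM of 6 macrophage markers was 50.9, 45.7 and 164 in vehicle replicates 1, 2 and 3 and 31.2 to 35.7 with BML-260, and that of the 3 of 4 neutrophil markers listed in the tables was 164, 23.6 and 799 against 6.67 to 11.9. The 5 erythroid markers summed to 8752 TPM in vehicle replicate 3 and to 1619 to 2162 TPM elsewhere, the 3 Schwann cell markers to 28.1 TPM against 4.96 to 9.91 TPM, and the 8 muscle fiber markers to between 94239 and 125710 TPM in all 6. The 4 lymphocyte markers were not listed. The part that these cells play in any value below was not tested, and in whole muscle fewer cells of a type cannot be told apart from less RNA per cell. Values without vehicle replicate 3 are therefore given beside most of the fold changes.

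The level of the set was concentrated in a few housekeeping RNAs: the 12 highest genes held 96.2% of its TPM, while 306 genes had a mean under 20 TPM. The 7SL copies Rn7s1 and Rn7s2 stood at the top, and since their transcripts (GENCODE M21) differed at 0 positions, their reads cannot be told apart. Rn7s1 had 86604, 91125 and 84898 TPM with vehicle and 98650.2, 95061 and 96534 TPM with BML-260. Rn7s2 had 86657, 91482 and 85264 TPM against 94894, 95002 and 96710.4 TPM. In TPM both were higher in every BML-260 library than in every vehicle library, while their count-based log2 fold changes were 0.27 ± 0.31 and 0.25 ± 0.31 (SE, adjusted p = 0.831 and 0.841, edgeR's quasi-likelihood test) and were 0.11 and 0.08 without vehicle replicate 3. 7SK RNA, Rn7sk, had 27269, 34591 and 24357 TPM with vehicle and 29439, 34188 and 34757 TPM with BML-260, so that the groups overlapped, with a log2 fold change of 0.29 ± 0.31, and 0.06 without vehicle replicate 3.

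The mitochondrial rRNAs remained in the libraries after depletion. mt-Rnr2, the 16S rRNA, had 59321, 98458 and 53842 TPM with vehicle and 70378, 59960.2 and 58649 TPM with BML-260, and vehicle replicate 2 was the highest. mt-Rnr1, the 12S rRNA, had 10507, 17992 and 5883 TPM against 11379, 10507 and 9817 TPM. Together they took 4.76% to 10.2% of the counts. Neither differed between the groups beyond the spread (log2 fold changes of -0.07 ± 0.46 and -0.07 ± 0.48, adjusted p = 0.974 and 0.976, edgeR). Without vehicle replicate 3, the lowest library for both, the values were -0.34 and -0.45. The mitochondrial tRNA for serine, TrnS1, reached 11082 to 18653 TPM, although all tRNAs together held 0.0434% to 0.0826% of the counts. The length by which TPM divides is short for such genes.

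RNA of RNase MRP (Rmrp) had 2449.9, 2333 and 3616 TPM with vehicle and 2448, 2733 and 2643 TPM with BML-260. RNase P RNA (Rpph1) had 1348, 1973 and 1672 TPM against 1165, 1720.1 and 1262 TPM. These groups overlapped, and the log2 fold changes were 0.08 ± 0.15 and -0.15 ± 0.24, and 0.10 and -0.30 without vehicle replicate 3. Next came Malat1, the nuclear lncRNA of splicing speckles, Ndufb1-ps with 428 to 578 TPM, Gm7336, a copy of Gapdh, with 305 to 578 TPM, and Rn18s-rs5, a copy of 18S rRNA sequence, with 109 to 655 TPM.

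**Figure D1:**
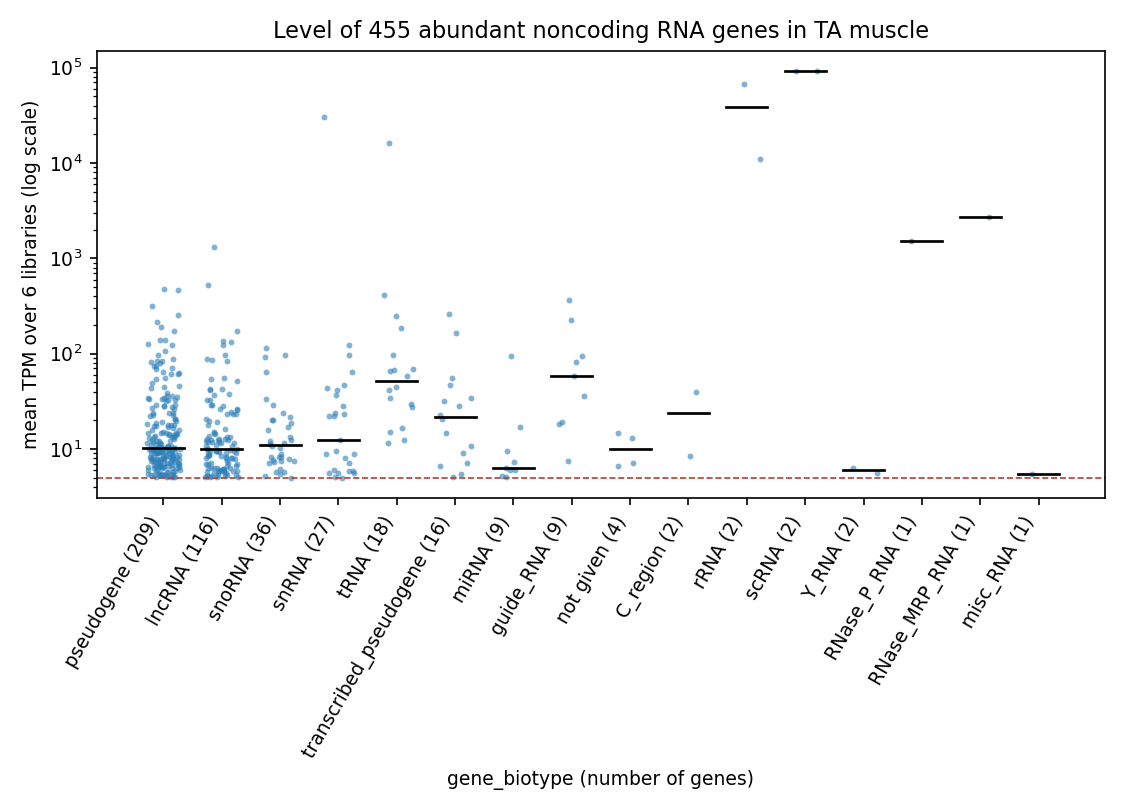
Mean TPM over the 6 libraries (log axis) of the 455 genes by gene_biotype, 1 point per gene, with the number of genes in brackets and a bar at the median of each class. The dashed line is the limit of 5 TPM that chose the genes. The scRNA and rRNA classes hold 4 genes between 11014 and 92145 TPM, and most pseudogenes and lncRNAs lie close to the limit.

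The share of all TPM held by noncoding genes of any level did not differ between the groups beyond their spread. It was 31.0%, 37.4% and 29.0% with vehicle and 34.3%, 33.5% and 33.4% with BML-260, a difference of 1.25 percentage points (two-sided exact permutation test over the libraries, p = 0.7, 0.956 after Benjamini-Hochberg adjustment over 17 shares). The scRNA share, nearly all of it 7SL, was 17.3%, 18.3% and 17.05% with vehicle and 19.4%, 19.02% and 19.3% with BML-260. This difference of 1.69 percentage points gave p = 0.1 in the exact test, which is the smallest p that 3 against 3 libraries allow, and 0.85 after adjustment. Of raw counts the scRNA share was 3.22%, 3.21% and 2.67% against 3.66%, 3.28% and 3.30%. The lncRNA share was 0.473%, 0.533% and 0.724% with vehicle and 0.446%, 0.503% and 0.539% with BML-260 (exact p = 0.5), and its highest value was that of vehicle replicate 3.

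Of the 455 genes, 451 had enough counts to be tested for a difference between BML-260 and vehicle with edgeR. Calls were made at a change of 1.3-fold or more in either direction together with an unadjusted p below 0.05, and 14 genes were called (3.10%), 4 higher and 10 lower with BML-260, against 5.75% of all 16188 genes tested. Of all genes 0.896% were called higher and 4.86% lower. After Benjamini-Hochberg adjustment over all genes 0 of the 451 had an adjusted p under 0.05 with edgeR (0.0% of all genes), while 15 had an unadjusted p under 0.05 (5.97% of all genes), and with DESeq2 1 had an adjusted p under 0.05 (0.587% of all genes). The calls below are therefore calls at an unadjusted threshold, and their adjusted p values lay between 0.598 and 0.788. Of the 14, 6 had a mean under 5 TPM in 1 group and so met the rule through the other: Gm9247, Atrip-trex1, Snhg4 and LOC115488690 through vehicle, and Gm39866 and Gm23952 through BML-260. The median log2 fold change of the 451 genes was 0.09, and that of all genes was -0.0039, and without vehicle replicate 3 the former was -0.02. In TPM, 44 of the 455 genes had groups without overlap (9.67%, against 9.62% of all rows), 16 higher (3.52%, against 2.08%) and 28 lower (6.15%, against 7.54%) with BML-260. Some of the 44 met the limit only through the group in which they were higher. Among the 401 genes with both group means of at least 5 TPM, chosen after seeing the data, 30 had no overlap (7.48%). Of these, 12 were higher (2.99%) and 18 lower (4.49%).

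**Figure D2:**
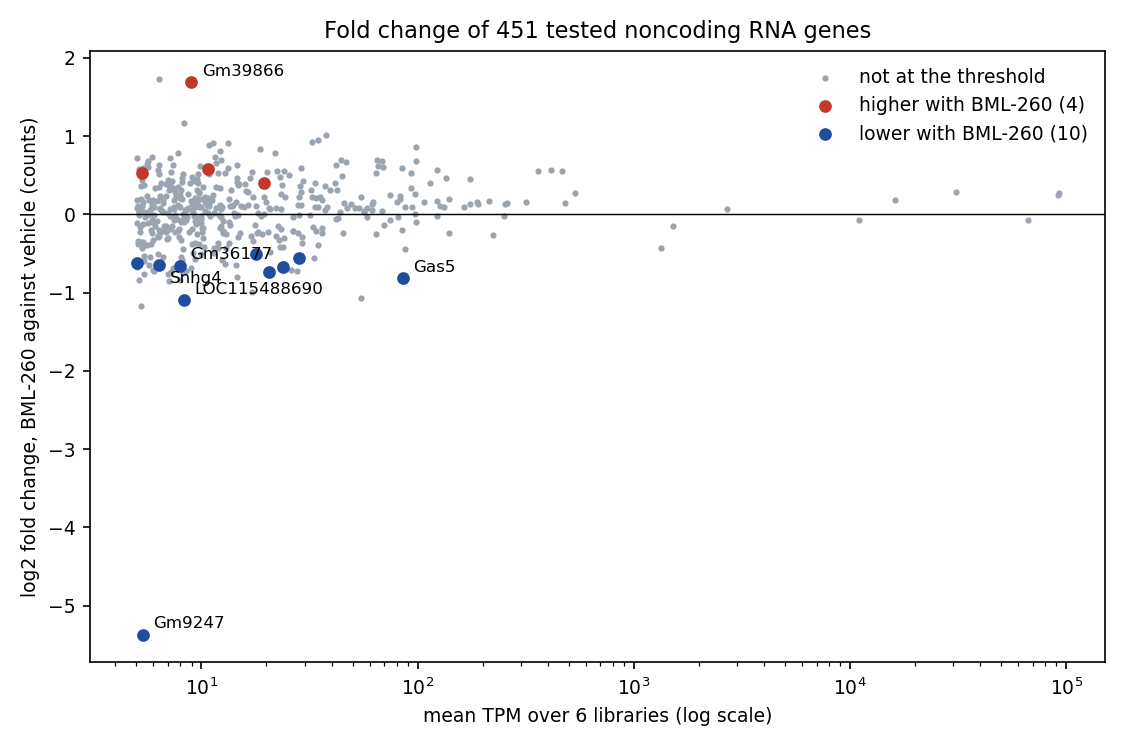
Log2 fold change of BML-260 against vehicle (edgeR, from counts) plotted against mean TPM (log axis) for the 451 tested genes. The 4 genes called higher and the 10 called lower at the unadjusted threshold are coloured and some are named. Gm9247 lies alone at -5.37, and no gene above 100 TPM was called.

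By class, the calls were 9 lncRNAs (4 higher and 5 lower), 3 pseudogenes, 1 transcribed pseudogene and 1 snoRNA. The lncRNA calls were 7.76% of 116, against 5.75% of all genes tested. The snRNAs, tRNAs, miRNAs and guide RNAs gave 0 calls. Without vehicle replicate 3, 11 genes were called, 6 higher and 5 lower, against 3.98% of all genes (1.06% higher and 2.92% lower), and 5 of these were among the 14: Gm9247, Atrip-trex1, Gm36177, Gm39866 and Gm23952. The calls also depended on the other libraries. Without vehicle replicate 1, 13 of the 14 were kept, without vehicle replicate 2 or BML-260 replicate 1 there were 7, and without BML-260 replicate 2 or 3 there were 4. Gm9247 and Atrip-trex1 were called in all 6 of these fits, and each of the other 12 lost its call in at least 3.

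The snoRNA host genes are spliced lncRNAs that carry snoRNAs in their introns. By a fixed list of names or by their description, 11 of the set were taken as such: Gas5, Zfas1, Epb41l4aos, and Snhg1, 3, 4, 5, 6, 8, 12 and 20. A host gene under another name would not be among these 11. Their summed TPM was 227, 208 and 643 with vehicle and 204, 221 and 223 with BML-260. All 11 were highest in vehicle replicate 3 (against 61.4% of all rows), at a median of 2.77 times the mean of the other libraries. At the threshold 2 of the 11 were lower (18.2%, against 4.86% of all genes tested) and 0 were higher (against 0.896%) with BML-260. Their median log2 fold change was -0.42, and 0.03 without vehicle replicate 3, when none was called.

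Gas5, growth arrest specific 5, named for its accumulation in cells that stop growing, had 63.2, 64.1 and 223 TPM with vehicle and 51.3, 50.3 and 61.9 TPM with BML-260. All treated values were under the lowest vehicle value, but vehicle replicate 3 lay far above the rest. The log2 fold change was -0.81 ± 0.34 (adjusted p = 0.788, edgeR), and -0.24 without that library, where the call was lost. The gene lies at chr1:161034601-161038539 and overlaps Zbtb37.

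Snhg4, which hosts Snora74a, had 5.64, 6.602 and 12.4 TPM with vehicle and 3.80, 5.29 and 4.59 TPM with BML-260, without overlap. Its log2 fold change was -0.64 ± 0.22 (adjusted p = 0.782, edgeR) and -0.45 without vehicle replicate 3. The nearest coding gene, Matr3, 3842 bases away, gave -0.37 and was not called.

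Snhg5 also had no overlap between the groups, with 11.2, 11.8 and 33.7 TPM against 9.56, 10.2 and 10.3 TPM, and a log2 fold change of -0.65 ± 0.29 that missed the threshold (unadjusted p = 0.0508, adjusted p = 0.788, edgeR) and was -0.21 without vehicle replicate 3. Snhg1 had 17.6, 18.3 and 68.0 TPM with vehicle and 15.1, 21.2 and 16.0 TPM with BML-260. Zfas1, transcribed against Znfx1, had 21.1, 20.8 and 64.6 TPM against 22.03, 22.5 and 24.1 TPM. Both were far higher in vehicle replicate 3 than in any other library, and the groups overlapped. The remaining hosts had the same shape: Snhg3 had 47.2, Snhg8 51.5, Snhg12 33.5, Snhg6 69.7, Snhg20 13.6 and Epb41l4aos 26.4 TPM in vehicle replicate 3, each above its values in the other 5 libraries.

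The snoRNAs inside these hosts can be set beside them. Gas5 held 5 of the snoRNAs of the set, SNORD24, SNORD44, SNORD74, SNORD75 and SNORD78, all of the C/D box type that guides methylation. All 5 were highest in vehicle replicate 3. SNORD78 (LOC115487677, at chr1:161036984-161037049) had 12.3, 16.6 and 43.6 TPM with vehicle and 8.38, 9.30 and 12.8 TPM with BML-260, with a log2 fold change of -0.99 ± 0.46 that was not called (-0.54 without vehicle replicate 3). SNORD75 (LOC115487678) had 3.34, 3.09 and 15.1 TPM against 1.89, 4.64 and 6.29 TPM and was too low in counts to be tested. Its high value in vehicle replicate 3 is part of what brought it over the limit of 5 TPM. Over the 4 tested, the median log2 fold change was -0.59, and -0.07 without vehicle replicate 3.

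The hosts and their snoRNAs did not always have the same profile. Snhg3 was highest in vehicle replicate 3, whereas its H/ACA box snoRNAs Snora73b (142, 94.5 and 69.3 TPM with vehicle, 138, 131 and 108 TPM with BML-260) and Snora73a (121, 87.6 and 44.4 against 114, 82.9 and 108 TPM) were lowest there. The same held for Snora74a of Snhg4, with 20.2, 32.2 and 10.7 TPM against 22.7, 19.3 and 36.7 TPM. H/ACA snoRNAs guide the conversion of uridine to pseudouridine.

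Of the 15 C/D box snoRNAs of the set, 14 were highest and 0 lowest in vehicle replicate 3. The 13 that were tested had a median log2 fold change of -0.59 and 0 calls. Some of the C/D box snoRNAs met the limit of 5 TPM through the vehicle group. All BML-260 values of Snord99 and Snord22 were under 5 TPM, and Snord22 was above 5 TPM in vehicle replicate 3 only. High vehicle values are thus part of what chose such genes. The counts and the median of the C/D box class are therefore given as a description. Of the 19 H/ACA box snoRNAs, 7 were highest (36.8%) and 9 lowest (47.4%, against 11.02% of all rows) in vehicle replicate 3. Their median was 0.38, and 1 was called (5.26%, against 5.75% of all genes tested). Without vehicle replicate 3 the medians were -0.22 and 0.16.

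The called snoRNA was LOC115488690, a copy of SNORA63 at chr16:23110383-23110507 in the coding gene Eif4a2, a translation initiation factor. It had 6.07, 9.55 and 20.2 TPM with vehicle and 3.54, 5.28 and 5.23 TPM with BML-260, without overlap (log2 fold change -1.10 ± 0.45, adjusted p = 0.788, edgeR), and gave -0.75 without vehicle replicate 3, when the call was lost. Snora81 of the same gene had 3.61, 5.57 and 13.98 TPM against 1.70, 3.46 and 3.28 TPM, also without overlap (-1.17 ± 0.51, not called, and -0.71 without vehicle replicate 3). Yet LOC115488689, a second SNORA63 copy in Eif4a2, had 112, 64.1 and 42.5 TPM with vehicle and 177, 43.6 and 148 TPM with BML-260, a log2 fold change of 0.86 ± 0.58, and 0.50 without vehicle replicate 3. Eif4a2 itself gave 0.14 ± 0.17. Like LOC115488690, Snora81 met the limit of 5 TPM through the vehicle group, as all its BML-260 values were under 5 TPM. The lower treated level of both is thus part of what chose them. The signs of the snoRNAs of this gene are given as a description.

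Among the spliceosomal RNAs, the U1 copies varied most between libraries. The 11 copies summed to 699, 346 and 138 TPM with vehicle and 745, 348 and 625 TPM with BML-260. Vehicle replicate 1 and BML-260 replicates 1 and 3 were high, vehicle replicate 2 and BML-260 replicate 2 were lower, and vehicle replicate 3 was the lowest for 10 of the 11 copies, so the split crossed the groups. The highest copy, LOC115488051, had 189, 87.1 and 29.0 TPM with vehicle and 186, 83.1 and 167 TPM with BML-260 (log2 fold change 0.57 ± 0.65, adjusted p = 0.831, edgeR). Rnu1a1 had 98.7, 39.4 and 25.6 TPM against 104, 44.2 and 73.6 TPM. The median over the copies was 0.57, and 0.13 without vehicle replicate 3, and none was called. U1 copies are nearly identical, so reads may have been split among them, and single copies are uncertain.

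U2 copies were steadier. The 8 copies summed to 55.6, 53.3 and 47.7 TPM with vehicle and 67.8, 55.4 and 66.9 TPM with BML-260. All 8 had positive log2 fold changes with a median of 0.41, and none was called. Without vehicle replicate 3, 6 were positive and the median was 0.27. In TPM 3 of the 8 were higher with BML-260 without overlap (37.5%, against 2.08% of all rows). The highest of these, LOC115487917, had 8.83, 7.91 and 9.33 TPM against 11.02, 9.87 and 10.6 TPM. Reads may have been split among the U2 copies too, so the 8 values cannot be taken as independent. The 5 U3 copies, which act in rRNA cleavage, summed to 124, 162 and 107 TPM against 120.02, 96.8 and 130.07 TPM, with a median log2 fold change of -0.03. Without vehicle replicate 3 their median was -0.39, and 0 of the 5 values were positive.

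The Y RNAs, small RNAs bound by the Ro autoantigen, were low in level. Both reached the limit of 5 TPM through the BML-260 group only, with vehicle means of 2.85 and 4.57 TPM, so their higher treated level is part of what chose them and is given as a description. Rny1 had 5.85, 2.12 and 0.588 TPM with vehicle and 8.004, 6.46 and 15.1 TPM with BML-260, and Rny3 had 4.41, 4.55 and 4.76 TPM against 8.70, 5.93 and 5.60 TPM. Their log2 fold changes were 1.74 ± 0.78 (adjusted p = 0.788, edgeR) and 0.69 ± 0.47, neither called, and 1.18 and 0.56 without vehicle replicate 3. The 9 guide RNAs, which modify snRNAs in the Cajal body, had a median log2 fold change of 0.23, which turned to -0.05 without vehicle replicate 3, and 0 calls. Of these Scarna2 alone did not overlap, with 91.2, 94.2 and 52.0 TPM against 111, 101 and 112 TPM (0.53 ± 0.35, not called, and 0.20 without vehicle replicate 3).

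The 17 mitochondrial tRNAs had a median log2 fold change of 0.43, and 0.11 without vehicle replicate 3, with 14 positive and 3 negative values and 0 calls. TrnY had 467, 353 and 219 TPM with vehicle and 483, 618 and 351 TPM with BML-260. TrnC had 27.8, 27.96 and 17.8 TPM against 32.4, 80.3 and 21.9 TPM. BML-260 replicate 2 was high in both and vehicle replicate 3 was the lowest. Of the 17, 10 were lowest in vehicle replicate 3. Their median log2 ratio of TPM to the gene's median over the 6 libraries was -0.65 there and -0.63 in BML-260 replicate 3. Over the 17 tRNAs the median coefficient of variation was 47.2% within the treated group and 41.2% within the vehicle group.

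**Figure D3:**
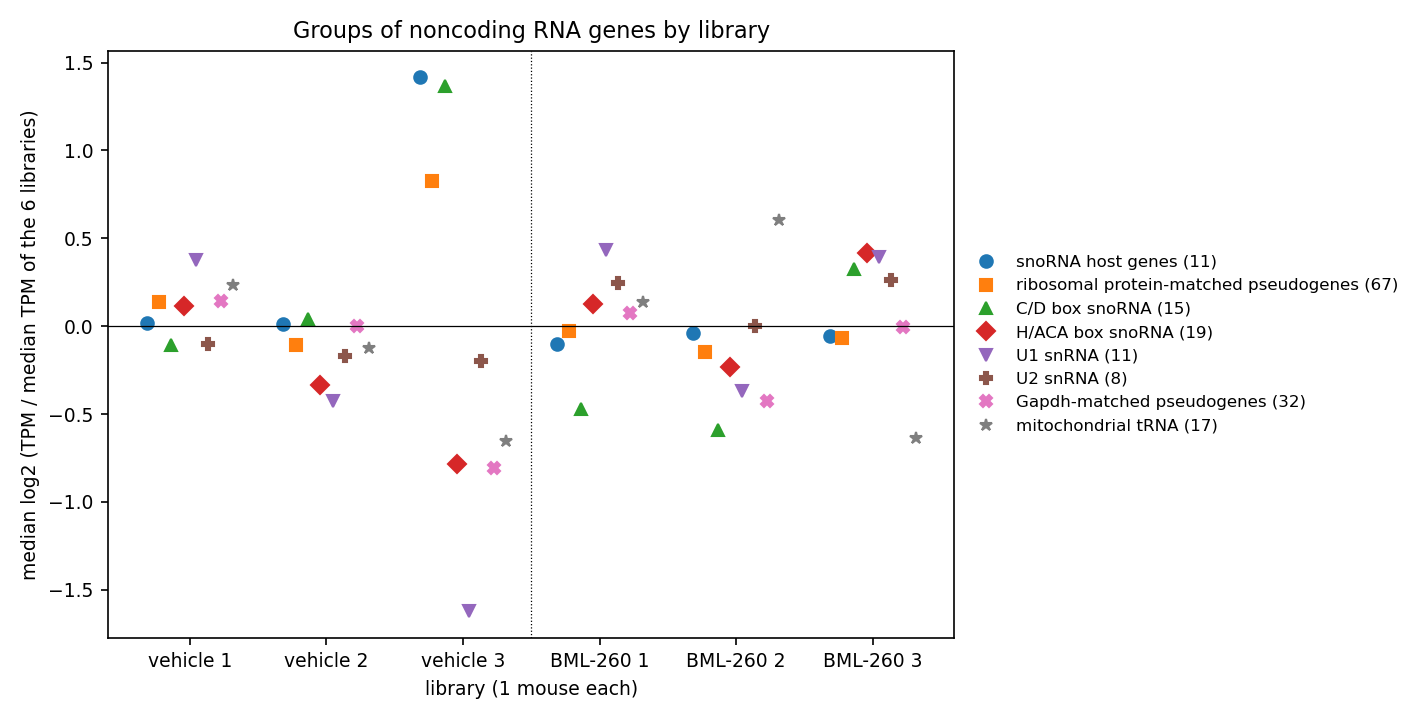
Median over the genes of a group of the log2 ratio of TPM to the gene's median over the 6 libraries, for 8 groups of noncoding RNA genes (number of genes in brackets), with vehicle libraries to the left of the dotted line. In vehicle replicate 3 the snoRNA host genes lie at 1.42 and the C/D box snoRNAs at 1.37, and the U1 copies lie at -1.62.

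Malat1 and Neat1 are nuclear lncRNAs, of splicing speckles and of paraspeckles. Malat1 had 926, 1679 and 2209.7 TPM with vehicle and 835, 1000.2 and 1333 TPM with BML-260. Neat1 had 39.7, 145 and 117 TPM against 45.6, 103 and 73.6 TPM. In both genes replicate 1 of each group was the lowest of its group and the groups overlapped. The log2 fold changes were -0.43 ± 0.32 and -0.44 ± 0.37 (adjusted p = 0.788 and 0.796, edgeR), and -0.34 and -0.41 without vehicle replicate 3.

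Of the lncRNAs other than the 11 taken as snoRNA hosts, 7 were called (6.67% of 105, against 5.75% of all genes tested). Gm36177 had 10.5, 9.75 and 10.02 TPM with vehicle and 6.48, 6.43 and 4.53 TPM with BML-260. The groups were well apart, with a log2 fold change of -0.65 ± 0.26 (adjusted p = 0.788, edgeR), and vehicle replicate 3 was like its group, the value without it being -0.81. The gene spans chr10:107495268-107659403 and overlaps Ptprq, which gave -0.28 and was not called. Its call was lost without vehicle replicate 1 or 2 and without BML-260 replicate 2 or 3, with log2 fold changes of -0.49 to -0.69.

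2310075C17Rik, within Arpp21, had 17.8, 18.1 and 45.7 TPM with vehicle and 11.7, 13.4 and 16.6 TPM with BML-260. Here too there was no overlap (log2 fold change -0.73 ± 0.27), and the value was -0.40, no longer called, without vehicle replicate 3. Arpp21, a gene for an RNA-binding phosphoprotein, was itself called lower, at -1.20 ± 0.37 (adjusted p = 0.699, edgeR).

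Atrip-trex1, a readthrough transcript that joins Atrip, a partner of the DNA damage kinase ATR, to the DNA exonuclease gene Trex1, had 5.68, 4.26 and 9.41 TPM with vehicle and 3.25, 3.45 and 4.22 TPM with BML-260. Its log2 fold change was -0.62 ± 0.18 (adjusted p = 0.699, edgeR) and -0.47, still called, without vehicle replicate 3. The genes it overlaps had the opposite sign: Trex1 gave 0.95 ± 0.23 (adjusted p = 0.623, called higher) and Atrip 0.48 ± 0.24 (not called). The 3 genes share exons, so how reads were divided among them can move each value.

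Of the 4 genes called higher, Gm39866 had the largest change, with 8.07, 3.76 and 0.987 TPM with vehicle and 10.2, 20.1 and 10.8 TPM with BML-260. It was the only one of the 4 without overlap between groups, at 1.69 ± 0.68 (adjusted p = 0.788, edgeR) and 1.17, still called, without vehicle replicate 3. The call was lost without BML-260 replicate 1, 2 or 3 (unadjusted p = 0.0521, 0.123 and 0.0548, edgeR) and without vehicle replicate 2 (0.0869). The gene is at chr2:79230985-79235188, and its nearest coding gene is the integrin gene Itga4, 20238 bases away, which was also called higher at 1.00 ± 0.40. A430046D13Rik had 17.9, 14.6 and 20.997 TPM against 18.3, 23.5 and 21.5 TPM (0.40 ± 0.14), and lies 562 bases from the myosin light chain gene Myl6b, which gave 0.40 ± 0.27. Gm23952 had 5.38, 3.15 and 5.45 TPM against 5.01, 7.04 and 6.02 TPM (0.53 ± 0.20), and 2310081J21Rik had 10.6, 6.24 and 10.4 TPM against 10.3, 13.7 and 12.8 TPM (0.58 ± 0.24). In these last 3 genes vehicle replicate 2 was the lowest library and the other vehicle libraries lay near the treated ones, and the call of each was lost without that library and also without BML-260 replicate 2. Without vehicle replicate 3 their log2 fold changes were 0.35, 0.47 and 0.51, of which that of Gm23952 was still called.

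**Figure D4:**
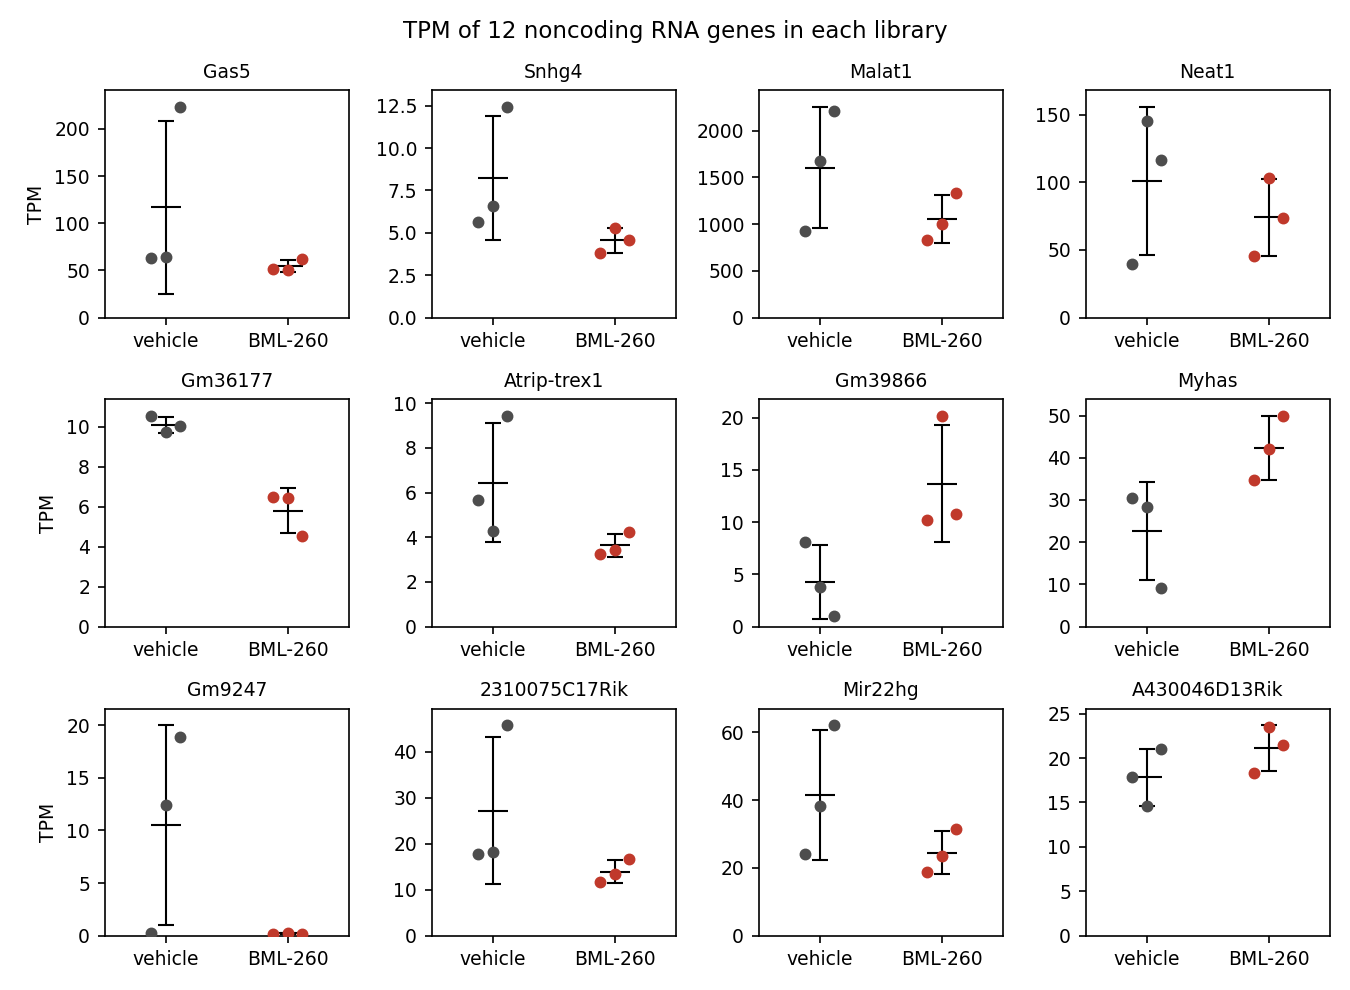
TPM of 12 noncoding RNA genes in each library, vehicle in grey and BML-260 in red, with the group mean and SD (n = 3 per group) as bars. Gas5, Snhg4 and 2310075C17Rik have 1 high vehicle library, while Gm36177 separates the groups in every library.

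A pair of lncRNAs lies at the cluster of fast myosin heavy chain genes. Myhas, the antisense RNA of this cluster, had 30.5, 28.3 and 9.26 TPM with vehicle and 34.7, 42.1 and 49.8 TPM with BML-260, higher in every treated library. It missed the threshold with all libraries (log2 fold change 0.93 ± 0.47, unadjusted p = 0.0831, adjusted p = 0.788, edgeR), and was called without vehicle replicate 3 (0.49, unadjusted p = 0.0066). 2310065F04Rik, at chr11:67112461-67120080, had 48.2, 22.6 and 4.45 TPM against 51.1, 53.1 and 46.3 TPM (1.02, and 0.49 without vehicle replicate 3). The myosin gene of type 2B fibers, Myh4, had 8721, 9581 and 7053 TPM with vehicle and 9005, 11008 and 13015 TPM with BML-260, with a log2 fold change of 0.48 ± 0.38, and 0.24 without vehicle replicate 3. The other adult fast myosin genes of the cluster had negative values: Myh1 (type 2X) gave -0.18 ± 0.32, and -0.26 without that library, and Myh2 (type 2A) gave -0.25 ± 0.43, which turned to 0.40 without it. None of the 3 was called.

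The host genes of the muscle miRNAs miR-1 and miR-133 were low. Mir1a-1hg had 9.30, 12.8 and 4.48 TPM with vehicle and 10.8, 12.4 and 19.5 TPM with BML-260 (0.73 ± 0.45, and 0.34 without vehicle replicate 3). Mir133a-1hg had 6.80, 9.42 and 5.22 TPM against 6.597, 7.26 and 6.69 TPM (0.02 ± 0.30, and -0.27 without that library). Both were lowest in vehicle replicate 3 and neither was called. Mir22hg, host of the miR-22 shown above, had 24.2, 38.1 and 62.1 TPM against 18.8, 23.4 and 31.3 TPM, at -0.56 ± 0.25 just outside the threshold (unadjusted p = 0.0533, adjusted p = 0.788, edgeR), and -0.38 without vehicle replicate 3. Mir100hg had 4.21 to 6.71 TPM with a log2 fold change of -0.11, and Lncpint, a lncRNA induced by p53, 7.95 to 20.7 TPM with -0.17. The miRNA gene Mir3064 had 86.7, 93.9 and 107 TPM with vehicle and 70.7, 116 and 92.2 TPM with BML-260, with 0.10 for itself and -0.18 ± 0.21 for its host Ddx5.

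Other lncRNAs were marked in vehicle replicate 3 and were chosen here after their values were seen. 2410006H16Rik had 31.4, 28.4 and 179 TPM with vehicle and 25.7, 24.1 and 40.7 TPM with BML-260, and its log2 fold change moved from -1.06 to -0.01 without that library. Gm30020 had 10.4, 5.07 and 0.0868 TPM against 12.7, 9.51 and 12.2 TPM, and Gm30794 had 15.3, 11.7 and 1.28 TPM against 12.4, 17.3 and 13.8 TPM.

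The pseudogenes were compared with the coding genes they resemble. The transcripts of 214 of the 225 pseudogenes (both classes) matched a protein-coding transcript at 80% identity or more over at least 50% of their length, 128 coding genes in all, with a median identity of 99.5%. Gapdh, a glycolytic enzyme, was the match of 32, and ribosomal protein genes of 67. The level of a pseudogene was a median of 5.03% of the level of its match, on the TPM scale.

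Log2 fold changes of pseudogene and match had the same sign in 181 of 212 pairs in which both were tested. Pearson's r was 0.41 and Spearman's rho 0.81 over the 212 pairs, and r was 0.80 over 211 without Gm9247. These are descriptions across genes that share sequence, libraries and, for many pairs, the same matched gene, and given the near identity the reads of the pair cannot be told apart with certainty.

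**Figure D5:**
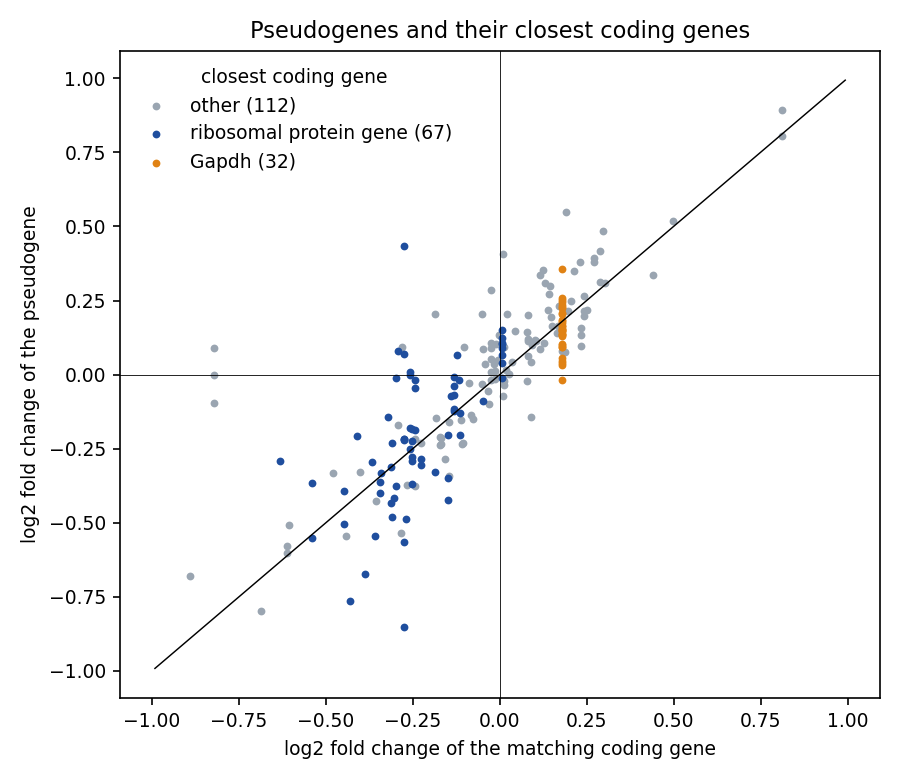
Log2 fold change (BML-260 against vehicle, edgeR) of 211 pseudogenes against that of the coding gene closest in sequence, with the line of equality. Gm9247, at -5.37, is left out of the plot. Copies of Gapdh lie in a column at 0.18 and most copies of ribosomal protein genes lie in the lower left.

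The 32 Gapdh copies summed to 3395, 3091 and 1779 TPM with vehicle and 3221, 2330.0 and 3054 TPM with BML-260. All 32 were lowest in vehicle replicate 3 (against 11.02% of all rows). Gapdh itself had 2339, 1926 and 1253 TPM against 2177, 1565 and 2129 TPM. The median log2 fold change was 0.15 for the copies and 0.18 ± 0.36 for Gapdh, and without vehicle replicate 3 it was -0.19 and -0.14, so both signs turned together. None of the copies was called. Gm7336, the highest, had 578, 523 and 305 TPM with vehicle and 547, 403 and 514 TPM with BML-260.

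The 67 copies of ribosomal protein genes summed to 936, 771 and 1546 TPM with vehicle and 819, 769 and 803 TPM with BML-260. Of these, 55 were highest (82.1%, against 61.4% of all rows) and 0 lowest in vehicle replicate 3. Their median log2 fold change was -0.22, beside -0.26 for their matches, and -0.10 without that library. The threshold was passed by 2, both lower (2.99%, against 4.86% of all genes tested). Gm8430, a copy of the ubiquitin-ribosomal fusion gene Rps27a (99.8% identity), had 28.6, 24.1 and 55.0 TPM against 22.8, 18.3 and 21.5 TPM, with -0.55 ± 0.21 for itself and -0.54 ± 0.22 for Rps27a. LOC102636101, a copy of Rpl39, had 18.5, 24.9 and 49.3 TPM against 14.3, 21.8 and 13.6 TPM, with -0.67 ± 0.29 and -0.39 ± 0.25. Gm13456, a copy of the elongation factor gene Eef1a1 and the third called, had 16.3, 17.3 and 33.5 TPM against 14.1, 12.6 and 13.97 TPM, with -0.51 ± 0.18 and -0.60 ± 0.24. All 3 were highest in vehicle replicate 3, and all 3 calls were lost without it (-0.34, -0.41 and -0.33).

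Gm9247 departed from its match. It lies at chr14:93194186-93195794 within Pcdh9 and matched Ldha, a subunit of lactate dehydrogenase, with 95.6% identity. It had 0.246, 12.4 and 18.9 TPM with vehicle and 0.133, 0.300 and 0.192 TPM with BML-260. Vehicle replicates 2 and 3 were high, while vehicle replicate 1 was at the level of the treated libraries, so the groups overlapped. The log2 fold change was -5.37 ± 1.22 (unadjusted p = 0.00207, adjusted p = 0.598, edgeR), and -4.93, still called, without vehicle replicate 3. With DESeq2 the adjusted p was 0.0135, and over all fits it ranged from 0.000923 to 0.984. Ldha had 1881, 1454 and 1124 TPM with vehicle and 1806, 1706 and 1606 TPM with BML-260, at 0.30 ± 0.31. The gene belongs to the set through 2 vehicle libraries only.

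Sequence motifs were counted in the promoters (250 bases before to 50 after the start, RefSeq, GRCm38.p6, both strands) of the 96 genes of the set with an entry. The FOXO motif GTAAACA was found in 1 of the 96 (1.04%, Gm23952), against 4.05% of 27025 genes. The AP-1 motif TGANTCA was found in 5 (5.21%, against 8.97%), among them 2310075C17Rik. The E-box CAGCTG was found in 15 (15.6%, against 18.3%), and the CRE motif TGACGTCA in 3 (3.13%, against 2.03%), Gas5 among them. TATAAA was found in 14 (14.6%, against 15.7%). A match describes the letters only.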

How the data were processed

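TA muscle RNA of 6 mice was sequenced (3 vehicle, 3 BML-260). Per the labels' processing notes and the paper's methods, the authors trimmed reads with Trimmomatic 0.38, mapped them with HISAT2 2.1.0 and Bowtie2 2.3.4.1 to mm10 and assembled transcripts with StringTie 2.1.3b. They deposited raw read counts per gene (45777 rows, not normalized) and TPM per library (16800 rows, each with a count in every library). Which annotation was counted, and how strand and multi-mapped reads were treated, is not given in the sources used here, so values of overlapping or nearly identical genes are uncertain. Columns without a sample numbered 0. Libraries held 39522890 to 56998875 counts. Counts were fitted over all genes with edgeR 4.0.16 (R 4.3.3): filterByExpr with the group, TMM, quasi-likelihood F-test, Benjamini-Hochberg adjustment over 16188 genes; the SE is the log2 fold change over the square root of F. Fold changes are from counts, levels and overlap from TPM. Shares were compared by two-sided exact permutation tests (scipy 1.17.1). Pseudogene transcripts (GENCODE M21) were matched with blastn 2.17.0. Gene names, positions and neighbours are from RefSeq GRCm38.p6, the build of mm10, where all 455 genes were found. Named are the 12 highest genes, all called genes, members of fixed lists and of housekeeping RNA families (the highest 6 where a family is large), and the genes at the limit. Other genes were picked with their values in view, and the members and lists were chosen with earlier results of these data known. P-values set the difference between the groups against the spread between these samples, and do not measure that spread. The fits were tested on simulated data.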

Additional observations from a re-analysis of the deposited data

How the results depend on the processing

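Calls at the unadjusted threshold among the noncoding RNA genes numbered 14 (4 higher, 10 lower). They became 23 (9 higher) with no filter on low counts and 22 (8 higher) with DESeq2, of which 1 had an adjusted p under 0.05. Of all genes, DESeq2 called 6.31% (1.12% higher). In limma voom with quality weights 12 were higher and 5 lower. A minimum of 10 TPM gave 7 calls among 248 tested genes (2.82%), and a minimum of 2 TPM gave 28 among 811. Genes with both group means of at least 5 TPM, chosen after seeing the data, gave 8 among 401 (2.00%). Of all genes tested 5.75% were called. Replicate numbers are shared by the groups, but the labels state no pairing, so same-numbered libraries were not taken as pairs. Across genes, deviations from the group means correlated at 0.162, 0.0541 and 0.11 between same-numbered libraries. Between libraries of different number all values were negative, from -0.1239 to -0.02055. Deviations from a group mean cancel out within the group, so these values are tied to the former and are no separate observation. What same-numbered libraries share was not tested. A replicate block gave 30 calls (19 higher), against 6.53% of all genes (2.01% higher). Leaving out 1 library gave 7 to 66 calls (3 to 35 higher, 4 to 31 lower, 0 to 1 at the adjusted threshold). There were 66 without vehicle replicate 1 (against 13.3% of all genes) and 27 without vehicle replicate 2 (beside 1207 calls over all genes). Without BML-260 replicates 1, 2 and 3 there were 9, 8 and 7, beside 702, 503 and 656 calls over all genes. Over all genes 931 calls (145 higher, 786 lower) became 1416 (249 higher) with no filter and 446 (53 higher, 393 lower) in limma on log2 TPM with a pseudocount of 1; 91 were higher with a pseudocount of 0.1, 255 higher in voom and 326 higher with the replicate block; leaving out 1 library gave 503 to 2223 (64 to 835 higher, 439 to 1388 lower). Adjusted calls over all genes were 0, 95 with DESeq2, 1 each with no filter, at least 10 counts in every library, the robust test and voom, and 0 to 9 without 1 library. Median log2 fold changes moved to -0.0467 and -0.0481 for lncRNAs on log2 TPM with pseudocounts of 1 and 0.1, to -0.118 for pseudogenes with a pseudocount of 0.1, and to 0.000217 for lncRNAs with apeglm, which shrank 314 of 451 values to within 0.001 of 0; without 1 library the median of lncRNAs was 0.0272 to 0.12. The share of noncoding genes turned from 1.25 to -0.352 percentage points on raw counts and that of pseudogenes from -0.0287 to 0.00773; without 1 library these differences ranged from -0.492 to 3.74 for all noncoding genes, -0.00514 to 0.0163 for snoRNAs, -0.11 to 0.298 for tRNAs and -1.96 to 0.876 for rRNAs. The causes were not tested. Of the 14 called genes 0 changed sign in any fit, while 15 of the 51 named genes tested did in at least 1.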
